A study of Mus musculus with 4 samples.

Results

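Contractile genes of smooth muscle and the genes that mark mural cells were examined in the tissue around the femoral artery. Members were taken by symbol from a list of 41 genes, of which 36 encode or control the contractile apparatus. The other 5 (*Rgs5*, *Cspg4*, *Pdgfrb*, *Mcam* and *Notch3*) are listed as pericyte genes. The table of values held 38 of the 41 among its 12661 genes, 33 contractile and 5 pericyte members, while *Myocd*, *Kcnma1* and *Ppp1r12b* were not analysed here. All libraries came from wild type C57BL/6 female mice, 11 weeks old and ovariectomized. The injury group had a spring wire passed into the femoral artery, the sham group had a sham operation, and the outer tissues, mainly perivascular adipose tissue (PVAT), were taken 48 h later. Each group had 2 libraries, labelled replicates 1 and 2, and no label says whether a library is 1 animal or a pool, so p-values measure the spread between these libraries. How much of the vessel wall was collected with the outer tissue is not given in the sources used here.

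The values are signed numbers that behave like logarithms, and the median over all genes lay within 0.0062 of 0 in each library. Neither the base nor what 0 stands for is given in the sources used here, so all differences (injury mean minus sham mean) stand in deposited units, without fold changes. Levels cannot be compared between genes on this scale, and the depth behind a value is unknown. Injury was compared with sham by limma over all 12661 genes with Benjamini-Hochberg adjustment, and a gene with an adjusted p-value under 0.05 is called.

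Smooth muscle cells shorten when myosin filaments pull on actin filaments that are anchored in dense bodies and at the cell membrane. Calcium starts this by activating the kinase of the myosin light chain, and a phosphatase reverses it. Most contractile genes are switched on together by serum response factor (SRF) with its partner myocardin, and differentiated cells of the arterial media are known to lose these transcripts after wall injury. Pericytes are the mural cells of capillaries and share part of this programme.

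The contractile genes lay lower after injury as a group, and none of the 38 members rose by the test. Of the 38, 18 were called lower, which is 47.4% against 3.67% of all genes tested. Both injury libraries lay below both sham libraries in 34 members (89.5%), against 30.3% of all genes. The remaining 4, *Srf*, *Ednra*, *Rgs5* and *Pdgfrb*, had overlapping groups. No member was called higher, against 3.76% of all genes, and 7.43% of all genes were called in either direction. At an adjusted p under 0.1 the count of lower members was 30, against 9.09% of all genes. All 38 differences were negative, with a median of -1.42 deposited units beside 0.01 over all genes. The 33 contractile members had a median difference of -1.51 with 16 called, and the 5 pericyte members had a median of -0.74 with 2 called. Members made up 6 of the 20 lowest differences over all genes and 15 of the 100 lowest. In bulk tissue, fewer smooth muscle cells and less of these transcripts per cell cannot be told apart.

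**Figure D1:**
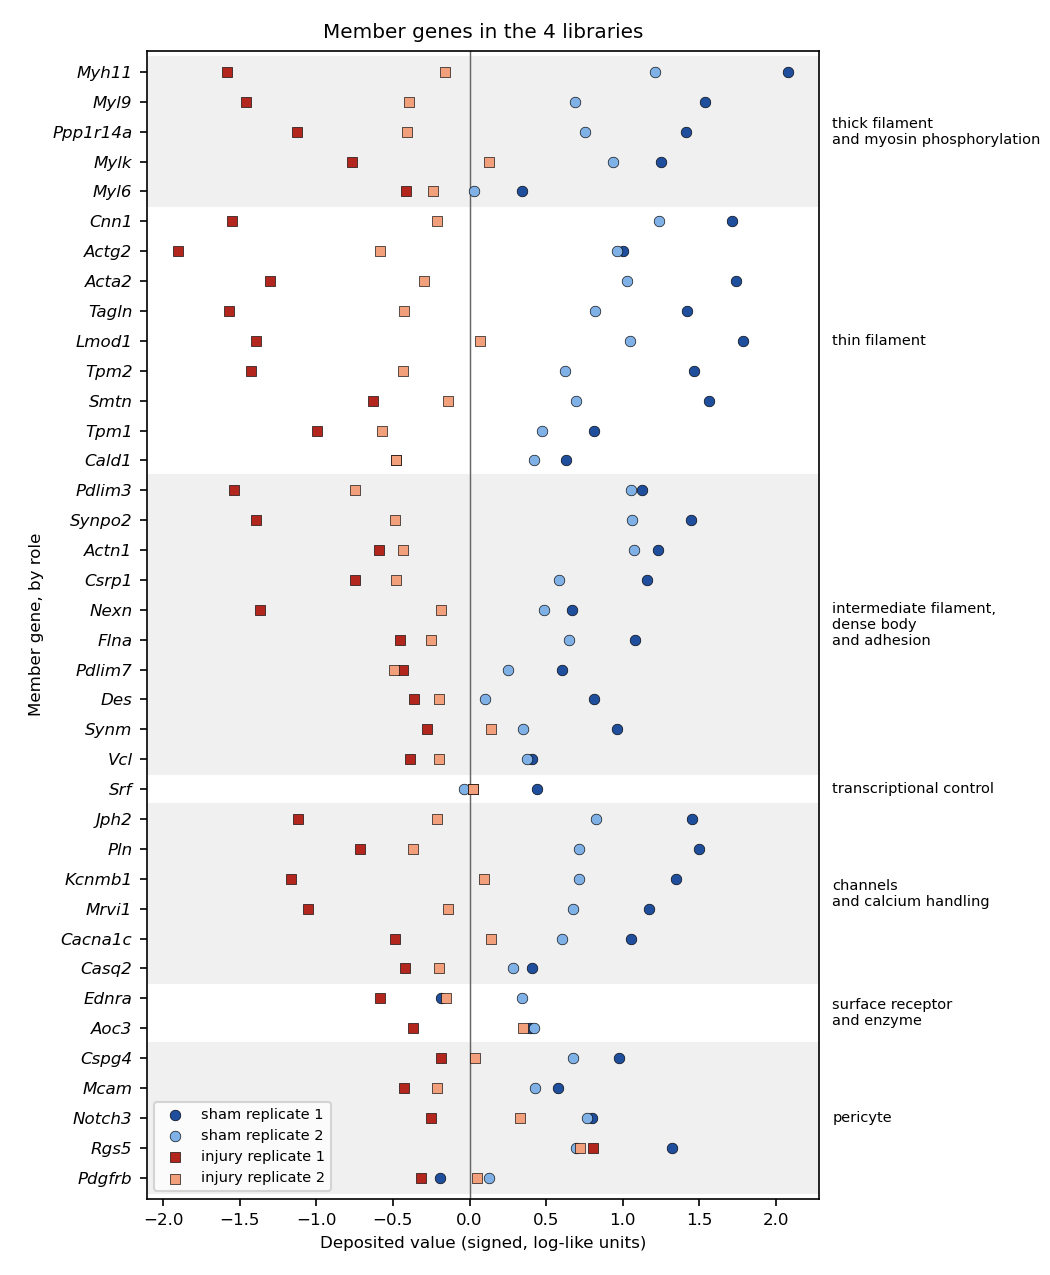
Deposited value (horizontal axis, signed log-like units) of the 38 members in each of the 4 libraries, grouped by role; circles are sham and squares injury libraries. In 34 members both squares lie left of both circles, and injury replicate 1 lies left of injury replicate 2 in 36.

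The libraries of a group did not lie together. Injury replicate 1 was below injury replicate 2 in 36 of the 38 members, by a median of 0.54 deposited units, while over all genes it was below in 51.1%. Sham replicate 1 was above sham replicate 2 in 35 of the 38, by a median of 0.44, against 51.6% of all genes. The median over the members was thus 1.10 and 0.68 in the sham libraries and -0.67 and -0.21 in the injury libraries. In 10 members with separated groups the gap between the injury libraries exceeded the gap that separated the groups. Calls therefore depended on single libraries. With 3 libraries limma assumes that the lone library of a group varies like the other group. Under it no member was called without sham replicate 1 or without sham replicate 2, although 27 and 33 members had an unadjusted p under 0.05. Over all genes 0 and 1 were then called, and 1960 and 2553 had an unadjusted p under 0.05. The calls given for genes outside the members carry the same limit. Without injury replicate 1 the called members were *Cnn1*, *Synpo2*, *Actg2*, *Pdlim3* and *Actn1*, 5 in all (284 of all genes), and without injury replicate 2 there were 30 (1790 of all genes). Differences stayed negative in 37, 38, 36 and 37 of the 38 members without injury replicate 1, injury replicate 2, sham replicate 1 and sham replicate 2.

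**Figure D2:**
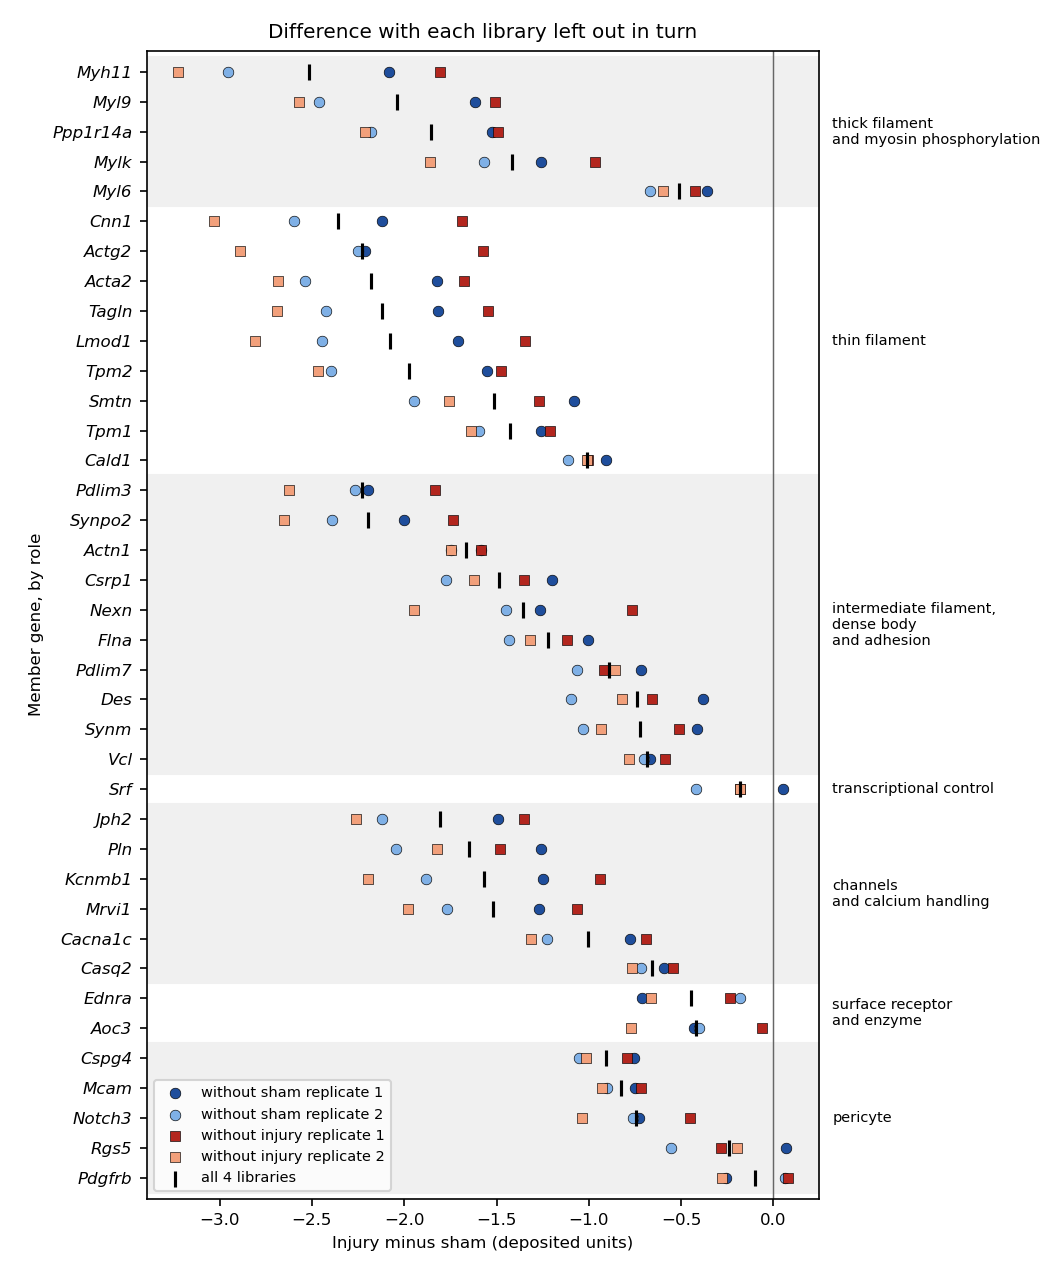
Difference between injury and sham (horizontal axis, deposited units) of each member with 1 library left out, and with all 4 (vertical bar). For *Myh11* it runs from -3.23 without injury replicate 2 to -1.81 without injury replicate 1, and the markers cross 0 only for *Srf*, *Rgs5* and *Pdgfrb*.

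*Srf* encodes the transcription factor that binds CArG boxes in the promoters of contractile genes, and its own transcript was not called. The gene lies on chromosome 17 of mm9 from 46683788 to 46693111. Its values were 0.44 and -0.03 in the sham libraries and 0.02 in each injury library. Both injury libraries lay between the sham libraries, with a difference of -0.18 and a standard error of 0.19 that was not called (limma adjusted p = 0.577). Without sham replicate 1 the difference was 0.06.

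Promoters were searched for the CArG box, which is CC and GG around 6 bases that are each A or T, over the 250 bases before the start given by RefSeq. The motif reads as itself on the opposite strand, so 1 search covers both. It was present in 1.47% of the 32851 promoters in that table and in 4 of 39 promoters of the 32 members listed there (10.3%). A looser form, with exactly 1 of the 6 inner bases G or C, cannot coincide with the strict form and was present in 7.24% of all promoters. At least 1 of the forms occurred in 8.59% of all promoters and in 28.2% of the member promoters, belonging to 9 members. *Myh11*, *Actg2*, *Tagln*, *Nexn*, *Aoc3* and *Pdgfrb* had no entry. The 4 promoters with a strict box are printed because SRF is the factor known to bind it, and *Acta2* because it carries the looser form at 2 places beside a large difference in its transcript. Capitals mark the boxes, and each line runs from 250 bases before the start to the base before it. The sequences are RefSeq's and each matched NCBIM37, the assembly of mm9, at a single place. The *Srf* promoter is chr17:46693112-46693361 (minus strand), with boxes from 82 to 73 and from 62 to 53 bases before the start. The *Vcl* promoter is chr14:21748370-21748619 (plus strand), that of *Myl9* chr2:156600950-156601199 (plus strand), that of *Myl6* chr10:127930066-127930315 (minus strand) and that of *Acta2* chr19:34329864-34330113 (minus strand).
Srf: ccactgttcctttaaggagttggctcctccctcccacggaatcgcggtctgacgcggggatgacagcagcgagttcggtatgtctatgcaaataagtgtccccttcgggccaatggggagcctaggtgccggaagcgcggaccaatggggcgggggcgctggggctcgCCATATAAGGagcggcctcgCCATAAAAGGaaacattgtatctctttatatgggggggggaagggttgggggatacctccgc
Vcl: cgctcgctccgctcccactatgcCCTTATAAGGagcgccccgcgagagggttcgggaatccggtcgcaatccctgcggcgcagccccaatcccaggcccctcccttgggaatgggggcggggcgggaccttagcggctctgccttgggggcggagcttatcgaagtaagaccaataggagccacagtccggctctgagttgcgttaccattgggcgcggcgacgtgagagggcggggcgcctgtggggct
Myl9: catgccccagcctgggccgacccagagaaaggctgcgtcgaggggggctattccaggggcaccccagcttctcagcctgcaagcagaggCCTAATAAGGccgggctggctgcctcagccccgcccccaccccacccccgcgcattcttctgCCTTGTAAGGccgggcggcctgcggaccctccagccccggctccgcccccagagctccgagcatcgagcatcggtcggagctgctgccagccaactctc
Myl6: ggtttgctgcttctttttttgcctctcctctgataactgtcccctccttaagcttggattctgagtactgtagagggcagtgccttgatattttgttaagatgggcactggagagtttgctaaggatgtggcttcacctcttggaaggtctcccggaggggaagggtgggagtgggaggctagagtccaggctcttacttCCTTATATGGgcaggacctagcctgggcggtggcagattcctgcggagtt
Acta2: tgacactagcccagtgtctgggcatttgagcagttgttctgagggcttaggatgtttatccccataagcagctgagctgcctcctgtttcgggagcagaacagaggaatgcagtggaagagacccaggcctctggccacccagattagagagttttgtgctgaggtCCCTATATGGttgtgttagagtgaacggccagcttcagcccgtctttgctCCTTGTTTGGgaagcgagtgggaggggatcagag

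The genes whose promoters are printed spanned most of the range of the members. Among them, *Acta2* differed by -2.18, *Myl9* by -2.04, *Vcl* by -0.68, *Myl6* by -0.51 and *Srf* by -0.18 deposited units. Only *Acta2* among these 5 was called, and no factor's binding was measured here. Of 25 cofactors and repressors of SRF on a list, 21 were in the table. None was called, near the 7.43% of all genes called in either direction. The median difference of the 21 was -0.38. The largest in size was that of *Gata6*, a factor of vascular smooth muscle, at -1.23 (limma adjusted p = 0.0504). It was called after quantile normalization of the columns and after scaling them to one spread (limma adjusted p = 0.0463 and 0.0360).

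*Myh11*, the smooth muscle myosin heavy chain, had the lowest difference of all members and the fifth lowest in the table. It lies on chromosome 16 of mm9 from 14194620 to 14291501. It stood at 2.08 and 1.21 in the sham libraries and at -1.58 and -0.16 in the injury libraries. The groups were far apart, yet the injury libraries differed from each other by more than the gap from injury replicate 2 to the lower sham library. The difference was -2.52 (standard error 0.52, limma adjusted p = 0.0499), at the edge of the threshold. A robust variance prior took it above (limma adjusted p = 0.0538).

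The other genes of this role encode light chains of myosin and proteins that control their phosphorylation, and 1 of these 4 was called. *Ppp1r14a* encodes CPI-17, an inhibitor of myosin phosphatase, and fell from 1.41 and 0.76 to -1.13 and -0.41. Its difference was -1.85 (standard error 0.32, limma adjusted p = 0.0368). *Myl9*, the regulatory light chain, had values of 1.53 and 0.69 after sham operation and -1.46 and -0.40 after injury. Its difference of -2.04 narrowly missed the threshold (limma adjusted p = 0.0518) and was called with quantile normalization or scaled columns (limma adjusted p = 0.0398 and 0.0353). It was not called with a robust variance prior or with the replicate number as a further term (limma adjusted p = 0.0554 and 0.0707). *Mylk*, the light chain kinase, went from 1.25 and 0.94 in sham to -0.77 and 0.13 in injury libraries, a difference of -1.41 (limma adjusted p = 0.0562). *Myl6*, the essential light chain that is used also by non-muscle myosin, differed least, by -0.51 (limma adjusted p = 0.120). In this role 2 of 5 genes were called lower and all 5 had separated groups, against 3.67% and 30.3% of all genes.

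Thin filament genes had the lowest median difference of the roles, -2.08. Of the 9, 6 were called lower, against 3.67% of all genes, and 9 of 9 were separated, against 30.3%. *Acta2*, the smooth muscle alpha-actin gene on chromosome 19 of mm9 from 34315580 to 34329826, stood at 1.74 and 1.03 after sham operation and at -1.30 and -0.29 after injury. It fell by 2.18 deposited units (standard error 0.40, limma adjusted p = 0.0397). *Actg2*, the enteric smooth muscle actin, fell from 1.0 and 0.97 to -1.91 and -0.59, a difference of -2.23 (limma adjusted p = 0.0433). Its sham libraries lay close together and its injury libraries far apart. Since actin genes are nearly identical over their coding sequence, reads may have been shared out between them in counting. *Tagln*, which encodes the actin-binding protein SM22-alpha on chromosome 9 of mm9 from 45737711 to 45744141, fell from 1.42 and 0.82 to -1.57 and -0.43. Its difference was -2.12 (standard error 0.41, limma adjusted p = 0.0452). *Cnn1*, calponin, lies on the same chromosome from 21903725 to 21914074 and fell from 1.72 and 1.24 to -1.55 and -0.21. At -2.36 (standard error 0.45, limma adjusted p = 0.0440) it had the largest change of the role, and it kept its call without injury replicate 1.

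Tropomyosins lie along the actin filament and control its access to myosin. *Tpm1* fell from 0.81 and 0.47 to -1.0 and -0.57, a difference of -1.43 (limma adjusted p = 0.0301), and *Tpm2* differed by -1.97 without a call (limma adjusted p = 0.0516). *Cald1*, caldesmon, which is found in many cell types, had the smallest difference of the role and the lowest standard error. Its values were 0.63 and 0.42 after sham operation and -0.48 in each injury library, and it fell by 1.01 deposited units (standard error 0.14, limma adjusted p = 0.0291). *Smtn*, smoothelin, a marker of fully contractile cells, was at 1.56 and 0.70 in the sham and at -0.63 and -0.14 in the injury libraries. The difference of -1.51 was not called (limma adjusted p = 0.0542). *Lmod1*, leiomodin, an actin filament nucleator, had values of 1.79 and 1.05 and then of -1.39 and 0.07. Its difference of -2.08 had a standard error of 0.51 (limma adjusted p = 0.0676) and ran from -2.81 to -1.35 with 1 library left out.

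**Figure D3:**
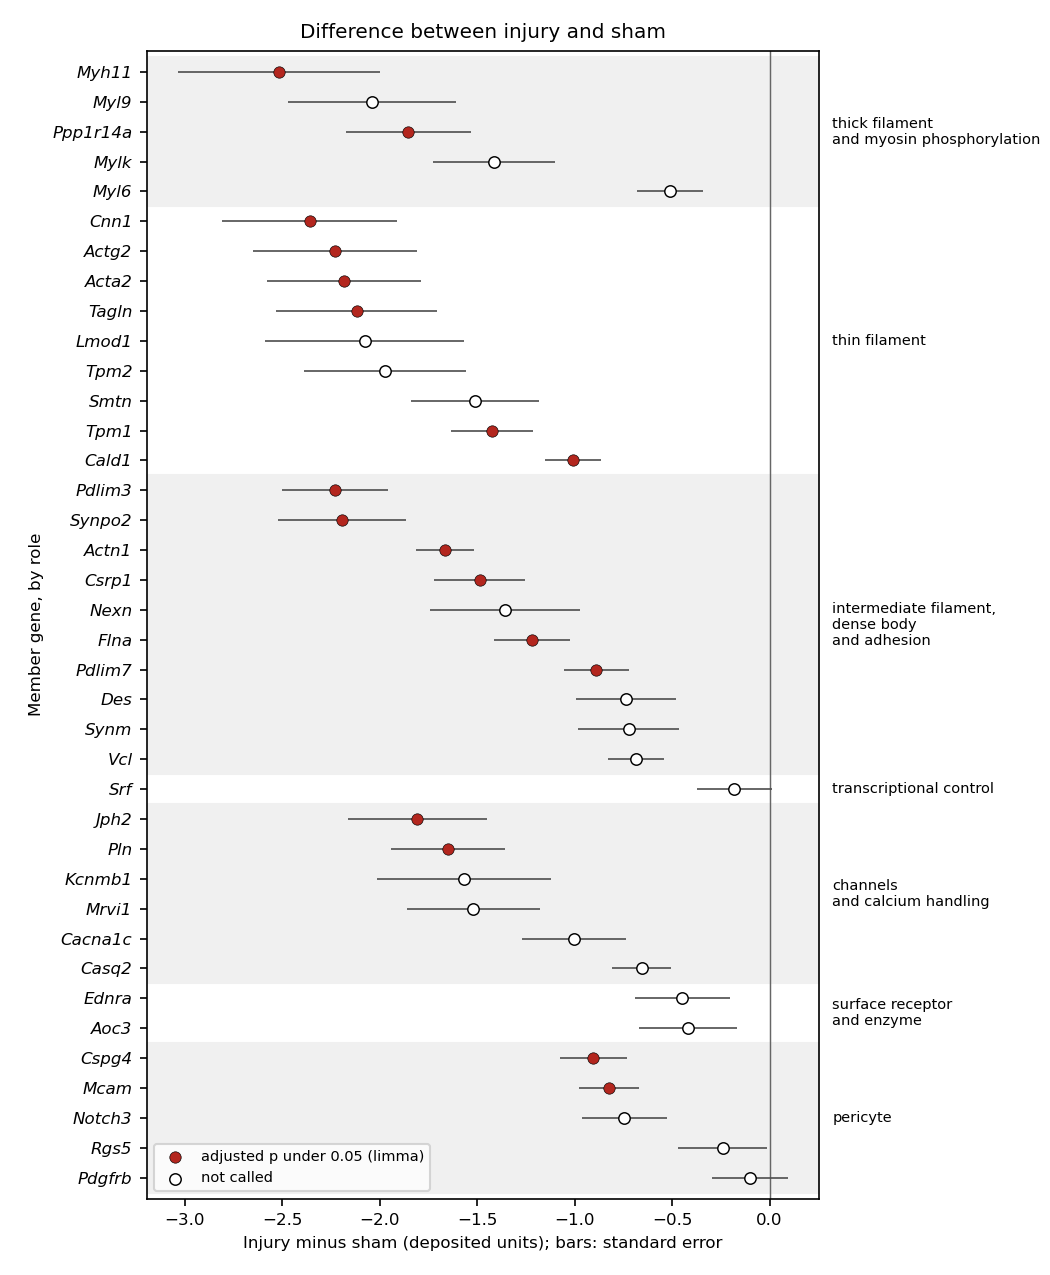
Difference between injury and sham (horizontal axis, deposited units) for the 38 members by role, with the standard error of limma as bars; filled points are the 18 with an adjusted p-value under 0.05 and open points the 20 not called. All points lie left of 0, from -2.52 for *Myh11* to -0.10 for *Pdgfrb*.

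Dense bodies and adhesion plaques anchor the filaments, and 6 of their 10 member genes were called lower, against 3.67% of all genes. The median difference of the 10 was -1.29. *Actn1*, alpha-actinin-1 on chromosome 12 of mm9 from 81268529 to 81361358, had tight groups. Its values of 1.23 and 1.07 after sham operation stood against -0.59 and -0.43 after injury. The difference of -1.67 had a standard error of 0.15 (limma adjusted p = 0.0285) and moved only from -1.75 to -1.59 when each library was left out. *Pdlim3*, an actinin-associated LIM protein, fell from 1.12 and 1.05 to -1.54 and -0.75, a difference of -2.23 (limma adjusted p = 0.0285). *Synpo2*, an actin-bundling protein of dense bodies, fell from 1.45 and 1.06 to -1.40 and -0.48, a difference of -2.19 (limma adjusted p = 0.0303). These 3 genes were also called without injury replicate 1.

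The other called genes of the anchoring structures had differences of smaller size. *Csrp1*, a LIM protein of smooth muscle, fell from 1.16 and 0.58 to -0.75 and -0.48, a difference of -1.49 (limma adjusted p = 0.0317). *Flna*, filamin A, a crosslinker of actin present in most cells, fell from 1.08 and 0.65 to -0.46 and -0.25, by 1.22 units (limma adjusted p = 0.0323). *Pdlim7* fell from 0.60 and 0.25 to -0.43 and -0.49, by 0.89 units (limma adjusted p = 0.0436), and was the only gene of the role with injury replicate 2 below injury replicate 1. *Des*, desmin, the muscle intermediate filament, was at 0.82 and 0.10 in the sham and at -0.36 and -0.20 in the injury libraries. The sham libraries were further apart than the gap between the groups, and the difference of -0.74 was not called (limma adjusted p = 0.134). *Synm*, synemin, a desmin partner, differed by -0.72 (limma adjusted p = 0.142) and *Nexn*, nexilin, by -1.36 (limma adjusted p = 0.0893). With 1 library left out, *Des* ran from -1.10 to -0.38, *Synm* from -1.03 to -0.42 and *Nexn* from -1.95 to -0.77. *Vcl*, vinculin of adhesion plaques, had values of 0.41 and 0.37 and then of -0.39 and -0.20, a difference of -0.68 (limma adjusted p = 0.0509). Its exons share 2087 bases with *Ap3m1* on the opposite strand in the annotation. The library kit keeps the strand, but whether the counting used it is not given in the sources used here.

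Genes of excitation and calcium handling had separated groups in 6 of 6 cases, with injury lower, against 30.3% of all genes. Of the 6, 2 were called lower, against 3.67%, and the median was -1.54. *Jph2*, junctophilin-2, which holds the sarcoplasmic reticulum to the cell membrane, fell from 1.45 and 0.83 to -1.12 and -0.21. Its difference was -1.81 (standard error 0.36, limma adjusted p = 0.0467), and a robust variance prior took it to an adjusted p of 0.0502. *Pln*, phospholamban, the inhibitor of the calcium pump of the reticulum, fell from 1.5 and 0.71 to -0.71 and -0.37, a difference of -1.65 (limma adjusted p = 0.0375). *Kcnmb1*, the smooth muscle beta subunit of the large-conductance potassium channel, was at 1.35 and 0.72 in the sham and at -1.17 and 0.10 in the injury libraries. The injury libraries differed by more than the gap between the groups, and the difference of -1.57 was not called (limma adjusted p = 0.0897). With 1 library left out the difference ran from -2.20 to -0.94. *Mrvi1*, a substrate of cyclic GMP-dependent kinase at the calcium stores, differed by -1.52 (limma adjusted p = 0.0570). *Cacna1c*, the pore of the L-type calcium channel, differed by -1.0 (limma adjusted p = 0.0786), and *Casq2*, calsequestrin-2, by -0.66 (limma adjusted p = 0.0607). Without injury replicate 2 all 6 genes of this role were called, and without injury replicate 1, sham replicate 1 or sham replicate 2 none of the 6 was.

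The receptor and the surface enzyme among the members gave smaller values. *Ednra*, the endothelin A receptor, was at -0.19 and 0.34 in the sham and at -0.58 and -0.15 in the injury libraries. Injury replicate 2 lay above sham replicate 1, and the difference was -0.45 (limma adjusted p = 0.287). *Aoc3*, an amine oxidase of smooth muscle and adipocytes, was at 0.39 and 0.42 after sham operation and at -0.37 and 0.35 after injury, a difference of -0.42 (limma adjusted p = 0.329). Both depended on single libraries. Leaving out sham replicate 1 took the difference of *Ednra* to -0.71, leaving out sham replicate 2 took it to -0.18, and that of *Aoc3* was -0.06 without injury replicate 1.

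Of the 5 pericyte genes 2 were called lower, against 3.67% of all genes. *Cspg4*, the NG2 proteoglycan gene on chromosome 9 of mm9 from 56712911 to 56747677, fell from 0.98 and 0.68 to -0.19 and 0.03. Its difference was -0.90 (standard error 0.17, limma adjusted p = 0.0440). *Mcam*, the adhesion molecule CD146, which endothelium also carries, fell from 0.58 and 0.43 to -0.43 and -0.22, a difference of -0.82 (standard error 0.15, limma adjusted p = 0.0411). *Notch3*, the Notch receptor of mural cells, was at 0.80 and 0.77 after sham operation and at -0.25 and 0.33 after injury. The groups were separated, but the difference of -0.74 (standard error 0.22) was not called (limma adjusted p = 0.0953). It ran from -1.04 to -0.45 with 1 library left out. Neither *Cspg4* nor *Mcam* was called without injury replicate 1, sham replicate 1 or sham replicate 2.

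*Rgs5* and *Pdgfrb* had the smallest differences of the pericyte genes. *Rgs5*, a regulator of G protein signalling, lies on mm9 chromosome 1, between 171585632 and 171625944. It was at 1.32 and 0.70 after sham operation and at 0.81 and 0.72 after injury. Both injury libraries lay within the range of the sham libraries, with a difference of -0.24 and a standard error of 0.23 that was not called (limma adjusted p = 0.533). *Pdgfrb*, the PDGF receptor through which mural cells are recruited, lies on chromosome 18 of mm9 from 61204804 to 61244715. It was at -0.20 and 0.12 and at -0.32 and 0.05, a difference of -0.10 (standard error 0.20, limma adjusted p = 0.774). Its 2 groups interleaved. Of the 33 contractile members 24 had a difference below that of *Cspg4*, the lowest pericyte gene, and 9 did not. This comparison of the 2 kinds of member was not tested, and in bulk tissue the cells behind each kind cannot be told apart. *Rgs5* differed by 0.07 without sham replicate 1 and *Pdgfrb* by 0.08 without injury replicate 1.

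A further 15 genes known from pericytes, chosen as a list beside the members, had a median difference of -0.24, and 2 were called lower, against 3.67% of all genes. These were *Rgs4*, a relative of *Rgs5*, from 1.18 and 0.82 to -0.67 and -0.31 (difference -1.49, limma adjusted p = 0.0291), and *Gjc1*, a gap junction gene that smooth muscle also uses (difference -0.93, limma adjusted p = 0.0330). *Kcnj8* and *Abcc9*, which encode the 2 subunits of the pericyte potassium channel, differed by -0.24 and -0.22 with adjusted p-values from limma of 0.413 and 0.563. *Higd1b* differed by -0.24 and *Cox4i2* by 0.11, and neither was called. *Pdgfra*, which stands also among the fibroblast markers, had the highest difference of the list, 0.41, and was not called (limma adjusted p = 0.271).

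A list of other genes of smooth muscle differentiation was examined beside the members. Values were held for 35 of 37 genes, 13 were called lower (3.67% of all genes were), none higher and 22 not at all, and the median difference was -0.85. By size the leading called genes were *Pcp4l1* (-2.09), the adaptor gene *Sorbs2* (-1.98), *Pgm5*, a protein of adhesion plaques (-1.98), and *Mustn1* (-1.65). Their adjusted p-values from limma were 0.0435, 0.0309, 0.0285 and 0.0330. *Pgm5* was at 0.996 and 0.913 in the sham and at -1.18 and -0.861 in the injury libraries, far more apart between groups than within them. *Gja1*, a gap junction gene, had the highest difference of the list, 0.44, and was not called (limma adjusted p = 0.338).

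Signalling genes around contraction were taken from 2 further lists. Among 8 genes of relaxation by cyclic GMP, 2 were called lower and 6 were not called, and the median was -0.71. In 7 of the 8 the groups were separated with injury lower, against 30.3% of all genes. *Gucy1b3*, a subunit of the nitric oxide receptor, fell from 0.68 and 0.75 to -0.42 and -0.20 (difference -1.02, limma adjusted p = 0.0294). *Prkg1*, the cyclic GMP-dependent kinase, fell from 0.84 and 0.57 to -0.17 and -0.30 (difference -0.94, limma adjusted p = 0.0345). Of 14 genes with values for constrictor receptors, their signalling and calcium handling, 4 were called lower, against 3.67% of all genes. These were *Htr2b* (-1.79), *Atp2b4* (-1.11), *Tbxa2r* (-0.93) and *Stim1* (-0.65), with limma adjusted p-values of 0.0330, 0.0350, 0.0498 and 0.0475. *Tbxa2r*, the thromboxane receptor gene, lost its call under quantile normalization, scaling to one spread and a robust prior. The median of that list was -0.31, and its extremes, *P2rx1* at -1.98 and the adrenergic receptor gene *Adra1a* at 1.09, were not called (limma adjusted p = 0.0607 and 0.0622).

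SRF also controls cytoskeletal and immediate early genes. Over 20 such genes the median difference was -0.15, with 1 called higher and 1 lower, shares near the 3.76% and 3.67% of all genes. *Egr2*, an immediate early factor, rose from -0.78 and -0.75 to 0.48 and 0.25 (difference 1.13, limma adjusted p = 0.0291). *Filip1l* fell from 0.81 and 0.74 to -0.66 and -0.32 (difference -1.27, limma adjusted p = 0.0291). The non-muscle actin *Actb* differed by 0.62 and *Actg1* by -0.20, and neither was called (limma adjusted p = 0.0831 and 0.578). The difference between these genes and the contractile members was not tested.

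Markers of other cells are given beside the members, by their median in each library, and their counts stand against 3.76% of all genes called higher and 3.67% called lower. The 10 macrophage markers had medians of -1.20 and -1.02 in the sham libraries and 0.59 and -0.14 in the injury libraries, and 4 of them were called higher, none lower. The 7 neutrophil markers had medians of -1.34 and -0.97 and of 1.22 and 0.18, with 2 called higher. Injury replicate 1 thus had the highest leukocyte medians and the lowest member medians of the 4 libraries, and sham replicate 1 the reverse. The 13 endothelial markers had medians of 0.56 and 0.59 and of -0.20 and -0.03, with 4 called lower. Their differences ran from -2.40 for *Vwf* (limma adjusted p = 0.0285, rank 7 from the lowest of all genes) to -0.20 for *Kdr*, not called. The 12 fibroblast markers had medians of 0.27 and -0.03 and of -0.79 and -0.32, with 5 called lower. Of 11 adipocyte markers, all with values in this adipose tissue, 1 was called lower, and the medians were 0.22 and 0.33 and then -0.12 and 0.30. Schwann cell markers (7 in the table) had 2 called lower and a median difference of -0.66, and of the epithelial markers only *Cdh1* was in the table, with a difference of -1.54 (limma adjusted p = 0.207). The part of these cell types in the values of the members was not tested.

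**Figure D4:**
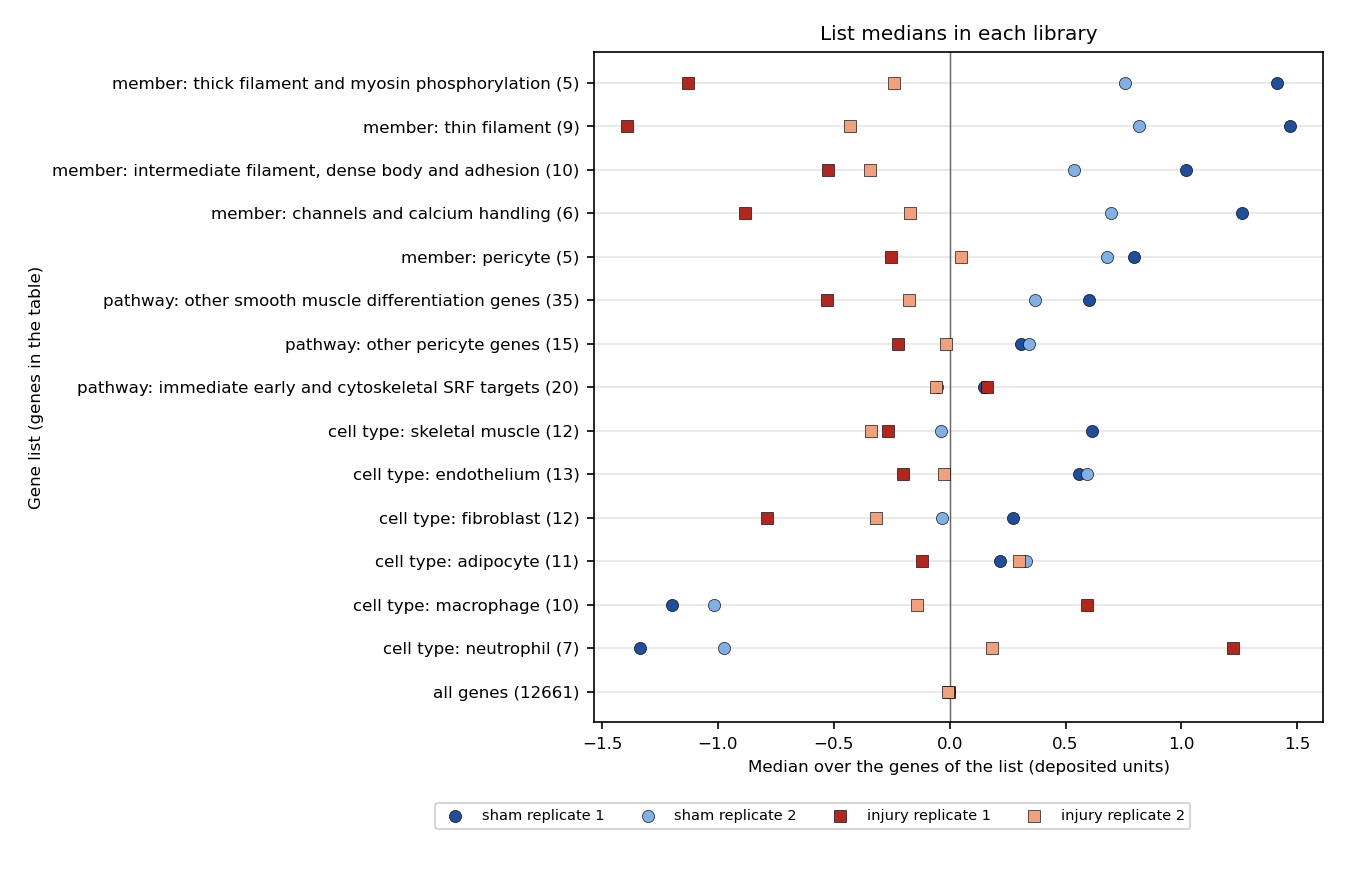
Median over the genes of a list (horizontal axis, deposited units) in each library, for member roles, pathway lists and cell type markers; the number of genes in the table stands in brackets. Thin filament genes run from 1.47 and 0.82 in the sham libraries to -1.39 and -0.43 in the injury libraries, and macrophage markers from -1.20 and -1.02 to 0.59 and -0.14.

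Skeletal muscle shares some members, so its markers stand beside them. Of 29 skeletal muscle markers 12 were in the table, with a median difference of -0.70. None was called by limma at an adjusted p under 0.05, near the 3.67% of all genes called lower. In 8 of the 12 the groups were separated with injury lower, against 30.3% of all genes, and in 1 with injury higher. The medians of the 12 were 0.62 and -0.04 in the sham libraries and -0.27 and -0.34 in the injury libraries, so sham replicate 1 stood apart. The 13 members that striated muscle also uses, such as *Des*, *Casq2*, *Pln*, *Jph2* and *Tpm1*, had a median difference of -1.43. Of these, 7 were called lower, against 3.67% of all genes. With the 13 left out, 11 of the remaining members were called and the median was -1.41.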

How the data were processed

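The authors prepared a stranded mRNA library from 480 ng of RNA per sample. Per the labels and methods, reads passed FastQC 0.11.8, Cutadapt 1.18 and Trimmomatic 0.39, were aligned to mm9 with STAR 2.6.0a, counted with featureCounts and compared with DESeq2 1.28.0. The deposited values are a signed, log-like score per gene and library (-2.27 to 6.45), not counts. How they were computed, their base and the filter that left 12661 genes are not given in the sources used here, and depth per library is unknown. No filter or pseudocount was applied. limma 3.58.1 in R 4.3.3 was fitted to all 12661 genes in the 4 libraries with the group as the only term, a two-sided test and Benjamini-Hochberg adjustment (threshold 0.05, 2 residual and 3.48 prior degrees of freedom). For a single gene, 2 libraries a group allow no exact permutation p below 0.333. The design allowed for counts, and limma was used because the values are not counts. Members and lists were chosen with earlier results of these data known. All members are named, and from the pathway lists the called genes or the 4 of largest size, or the largest when none was called. Cell type markers are given mainly as medians and counts. Other genes were named after their values were seen. The results of 1 pathway list are not reported here. The fit was tested on simulated data with 12661 independent genes, of which 200 were changed. There 90.8% of changes of 2 units and 21.6% of changes of 1 unit were called. Members shared gaps between replicates, so these rates need not hold for them. Coordinates come from GENCODE vM1 on NCBIM37 (mm9) and promoters from RefSeq (GRCm38.p6). Python 3.11.15, pandas 2.3.3, numpy 2.4.6 and matplotlib 3.10.9 were used. Alternatives are given in the closing section.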

Additional observations from a re-analysis of the deposited data

How the results depend on the processing

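Median differences of the members, the contractile and the pericyte members kept their sign in all alternatives run. With each library left out in turn they ran from -1.69 to -1.03, from -1.82 to -1.21 and from -0.93 to -0.45. The number of called members was 18, and 16 to 23 after quantile normalization, scaling to one spread, centring on the median, a robust prior or identical rows counted once. It was 30 at an adjusted p under 0.1 (27 contractile, and 2317 of all genes) and 11 without members that striated muscle uses (9 contractile), as follows from the threshold and the shorter list. Leaving out each library gave 0 to 30 members, 0 to 27 contractile, 0 to 3 pericyte and 0 to 1790 of all genes. With 1 library in a group its spread is assumed from the other. Reversals occurred only among uncalled genes with a library left out, for *Srf* (-0.42 to 0.055), *Rgs5* (-0.55 to 0.070) and *Pdgfrb* (-0.28 to 0.082). The replicate numbers are not stated to pair animals, and the gaps between replicates correlated at -0.094 across genes between groups. With a replicate block 8 members were called, all contractile and all among the 18, with 0 pericyte members and 684 of all genes. The 10 that lost their call were *Myh11*, *Ppp1r14a*, *Acta2*, *Tagln*, *Cnn1*, *Pdlim7*, *Pln*, *Jph2*, *Cspg4* and *Mcam*. The cause of these changes was not tested. The alternatives for counts were not run because the values are not counts. Depth, and with it what low genes could show, is unknown.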

Other observations

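Genes listed for modulated smooth muscle, cells that have left the contractile state, were called in both directions. Several are used by other cells of this tissue. Of the 17 with values, 3 were called higher and 3 lower, against 3.76% and 3.67% of all genes, with a median difference of -0.30. *Spp1*, osteopontin, which macrophages also make, rose from -2.27 and -1.12 to 0.76 and 0.35 (difference 2.25, limma adjusted p = 0.0370). *Lgals3*, a lectin likewise abundant in macrophages, rose by 1.64 units (limma adjusted p = 0.0301), and *S100a4* rose by 1.39 (limma adjusted p = 0.0285). *Mgp*, matrix Gla protein, an inhibitor of calcification made by differentiated smooth muscle, fell from 1.16 and 0.54 to -1.01 and -0.49 (difference -1.59, limma adjusted p = 0.0368). The matrix genes *Dcn* and *Lum* of this list, with differences of -1.0 and -1.04, are fibroblast markers as well.

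Ligands and receptors through which mural cells are recruited and kept gave 1 call among 10 genes, a share near the 7.43% of all genes called in either direction, with a median difference of -0.36. *Dll1*, a Notch ligand, fell from 1.5 and 0.96 to -0.49 and -0.39 (difference -1.67, limma adjusted p = 0.0285). *Pdgfb*, the endothelial ligand of the receptor encoded by *Pdgfrb*, differed by -0.09 and was not called (limma adjusted p = 0.718).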
